A study of Mus musculus with 6 samples.

Results

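The genes examined were those of the pyruvate dehydrogenase (PDH) complex with its kinases and phosphatases, the tricarboxylic acid (TCA) cycle and the malate-aspartate shuttle, given by name. Of 34 genes named, 33 had a row among the 13363 genes of the deposited expression table, and Pdhx was not analysed here. The samples were 3 of gastrocnemius muscle from tumor-bearing C26 mice and 3 from Control mice, all male Balb/c mice bought at 6 weeks of age and acclimated for 1 week. C26 mice had received C26 colon adenocarcinoma cells under the skin of the right flank, and Control mice carried no tumor. The study kept 10 mice in each arm, and 3 samples per arm were sequenced. The question put to the muscles was how the transcriptome of cachectic muscle, wasted by the tumor, differs from that of normal muscle.

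The PDH complex joins glycolysis to the TCA cycle by turning pyruvate into acetyl-CoA inside mitochondria. PDH kinases (Pdk1 to Pdk4) switch the complex off by phosphorylating its E1α subunit, and PDH phosphatases switch it on again. In skeletal muscle Pdk4 is the isoform known to rise in fasting and when fatty acids replace glucose as fuel. The malate-aspartate shuttle carries the reducing equivalents of cytosolic NADH into mitochondria by means of paired malate dehydrogenases and aspartate aminotransferases.

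Levels are given as FPKM, a level corrected for transcript length and library size, as deposited, in the order of replicates 1, 2 and 3. Fold changes come from TPM scaled by TMM factors, and a log2 fold change is C26 minus Control on the log2(scaled TPM + 1) scale, which understates the change of low genes. A C26-to-Control ratio on this scale was 1.16 times the ratio of the deposited FPKM. A gene was called when its adjusted p from limma was under 0.05. The labels do not say whether each sample is a separate mouse, so p-values measure the spread between the 3 samples of a group, which may be technical. In bulk muscle, fewer cells of a type and less RNA per cell cannot be told apart.

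Of the 33 genes, 8 were higher and 1 was lower in C26 muscles, and 24 were not called. Those higher were Pdk4, Idh2, Got1, Pdp2, Pdpr, Ogdh, Dlst and Pdk2, and the one lower was Pdp1. The share called higher was 24.2%, beside 19.4% of all 13363 genes, and the share called lower was 3.03%, beside 14.5% of all genes. With FPKM used as deposited, 1678 genes in all were higher and 2504 lower in place of 2589 and 1932, while 7 and 1 of the 33 genes were called. The median log2 fold change was 0.18 over the 33 genes and -0.05 over all genes. With FPKM as deposited the middle gene of the 33 was Me3 at -0.03, beside a median of -0.14 over all genes. With quantile normalization it was Me2 at -0.12, beside 0.02 over all genes. The direction of this contrast thus depended on the normalization. On scaled TPM the groups did not overlap for 9 genes that were higher in C26 muscles, beside 27% of all genes, and for 2 that were lower, beside 26.5%. The 8 higher became 4 with quantile normalization, beside 2242 of all 13363 genes, a smaller share than that of all genes. With an ordinary linear model they became 2, beside 1525 of all genes. They became 4 without C26 replicate 1 (1127 of all genes) or 2 (1528), 3 without Control replicate 1 (1151) and 5 without Control replicate 3 (2230). The 1 lower ranged from 0 to 3 over the alternatives, beside 669 to 2504 of all genes. The largest differences were those of Pdk4, Idh2 and Got1.

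**Figure D1:**
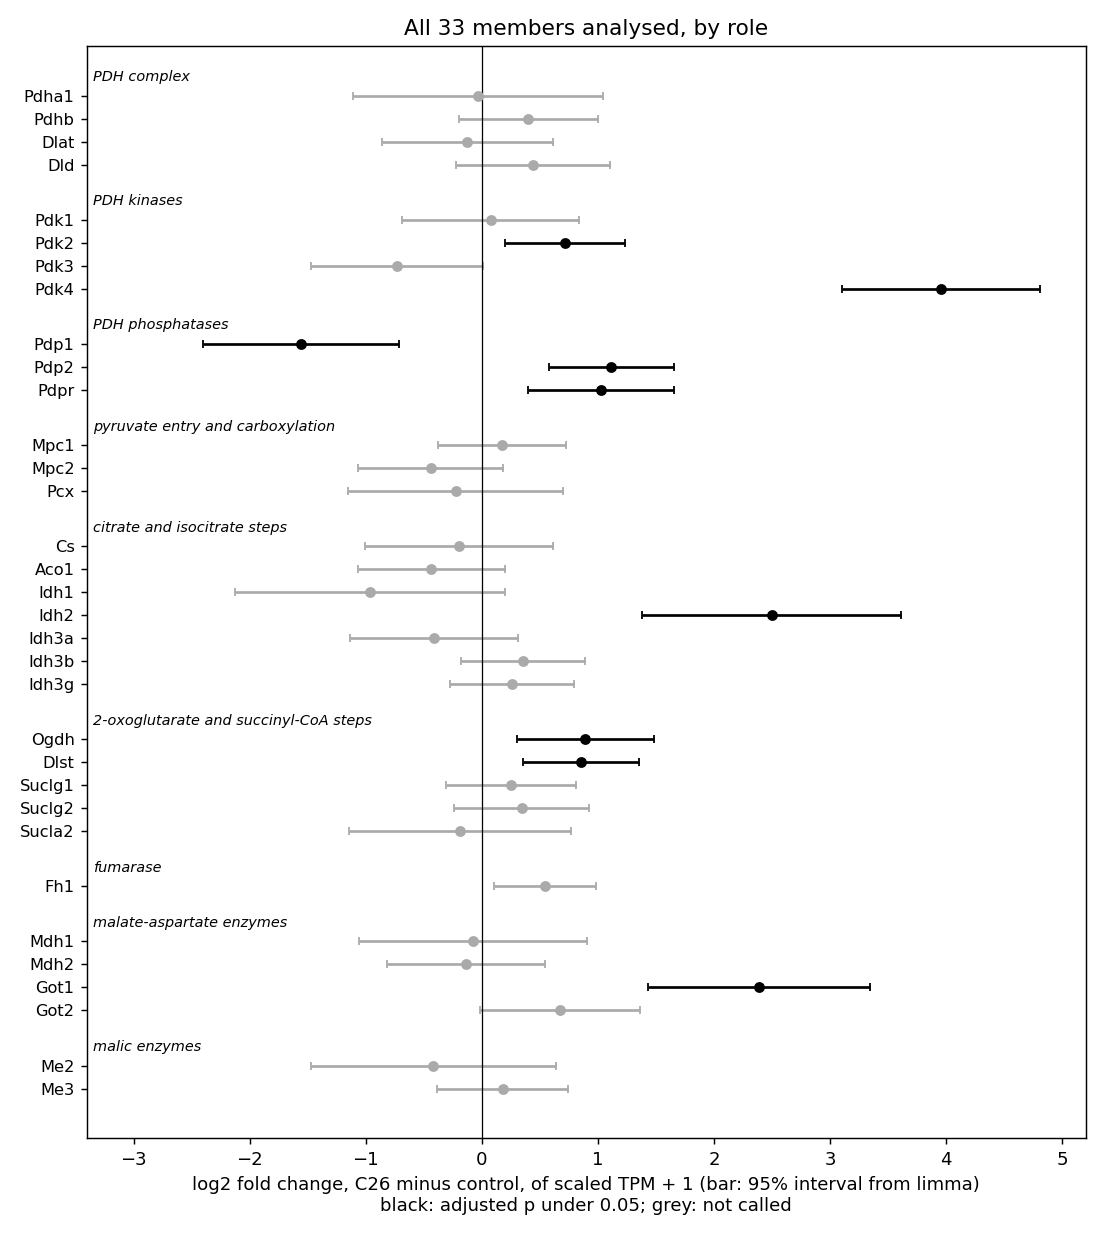
Log2 fold change of each of the 33 genes, C26 minus Control, with its 95% interval from limma (n = 3 muscles per group), in groups by role. Black points had an adjusted p under 0.05; Pdk4 lay at 3.96, Idh2 at 2.5 and Got1 at 2.39, while the 4 subunits of the PDH complex spanned 0.

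Pdk4, the kinase isoform that inactivates the PDH complex, had the largest change. It had 1408, 940 and 1190 FPKM in C26 muscles and 92.4, 123 and 57.0 FPKM in Control muscles. The lowest C26 value was several times the highest Control value, so the groups were far apart. The fold was 15.5 and the log2 fold change 3.96 (SE 0.36, limma adjusted p = 0.00197). It remained called under all 9 alternatives and with each of the 6 muscles left out, between 3.61 and 4.27 on the log2 scale in the latter. In C26 muscles Pdk4 had the highest mean level of the genes examined, at 1179 ± 234 FPKM (SD, n = 3) against 90.8 ± 33 in Control muscles.

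Pdk2, the kinase isoform found in most tissues, was the other abundant kinase. Its levels were 443, 348 and 331 FPKM in C26 muscles and 263, 304 and 223 FPKM in Control muscles. The groups did not overlap, but the lowest C26 muscle lay close above the highest Control muscle. The log2 fold change was 0.72 (SE 0.22, limma adjusted p = 0.0435), and the call was lost under 5 of 9 alternatives, FPKM as deposited among them (0.50, limma adjusted p = 0.0735). It was also lost without C26 replicate 1 or 2 or Control replicate 1 or 3, at limma adjusted p values of 0.0800 to 0.142.

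The other kinases were scarce. Pdk1 had 4.16, 3.84 and 6.68 FPKM in C26 muscles and 5.23, 6.87 and 3.88 in Control muscles, and the groups overlapped. Pdk3 had 0.44, 0.38 and 0.32 FPKM in C26 muscles and 0.91, 0.59 and 2.47 in Control muscles. Every C26 value of Pdk3 was below every Control value, yet the difference of -0.73 on the log2 scale was not called (SE 0.31, limma adjusted p = 0.111). It was -0.37 without Control replicate 3, -0.33 with quantile normalization and -1.22 with a pseudocount of 0.1. Control replicate 3, which was highest for Pdk3, also held 40.1 FPKM of the immune cell marker Ptprc, against at most 0.81 in the other muscles; its part in the Pdk3 value was not tested.

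**Figure D2:**
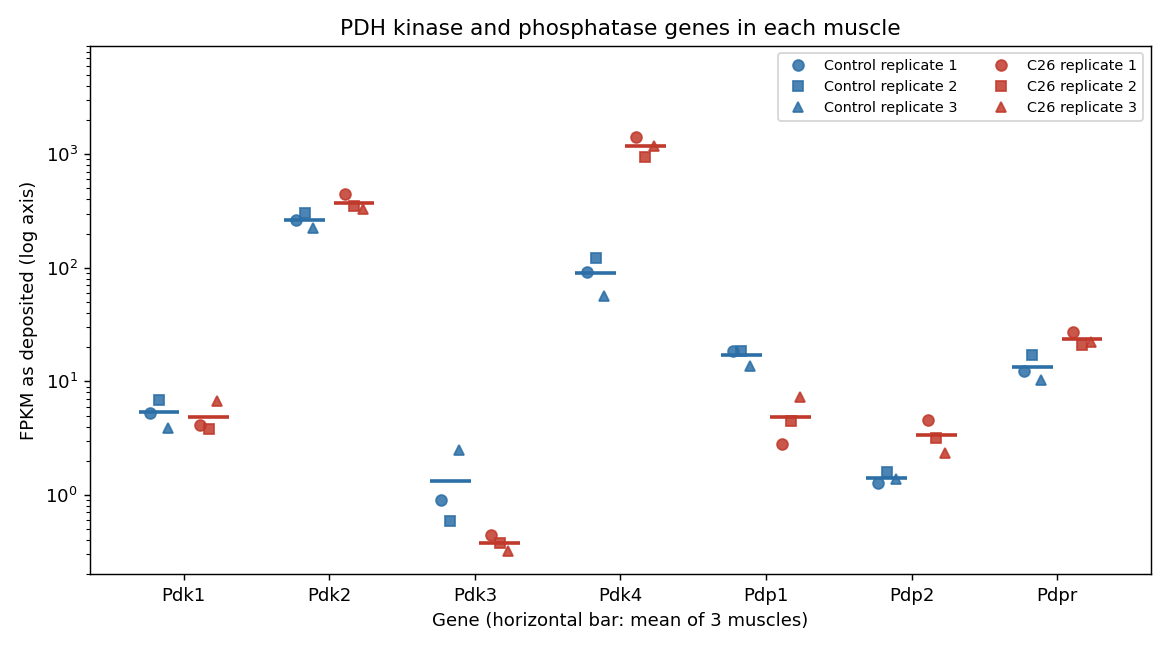
FPKM of the PDH kinase and phosphatase genes in each of the 6 muscles on a log axis; symbols mark the replicate, colors the group and horizontal bars the mean of 3 muscles. Pdk4 passed Pdk2 in every C26 muscle, with 940 to 1408 FPKM, and lay below it in every Control muscle, while Pdp1 fell and Pdp2 rose.

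Because FPKM is per length, the 4 kinases could be added within a muscle, and such shares do not depend on the scaling between muscles. The summed kinase level was 1855, 1292 and 1528 FPKM in C26 muscles and 362, 435 and 286 FPKM in Control muscles. Pdk4 made up 75.9%, 72.8% and 77.9% of that sum in C26 muscles and 25.5%, 28.3% and 19.9% in Control muscles. The main isoform therefore changed from Pdk2 in all 3 Control muscles to Pdk4 in all 3 C26 muscles. The mean share of Pdk4 was 75.5 ± 2.59% against 24.6 ± 4.28% (SD, n = 3), and a two-sided exact permutation test gave p = 0.1, the smallest p that 3 muscles against 3 allow. The share of Pdk2 was 24.1 ± 2.64% against 73.5 ± 4.01%, with the same p of 0.1 in the exact permutation test. Pdk1 held at most 1.58% and Pdk3 at most 0.863% of the sum in any muscle.

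**Figure D3:**
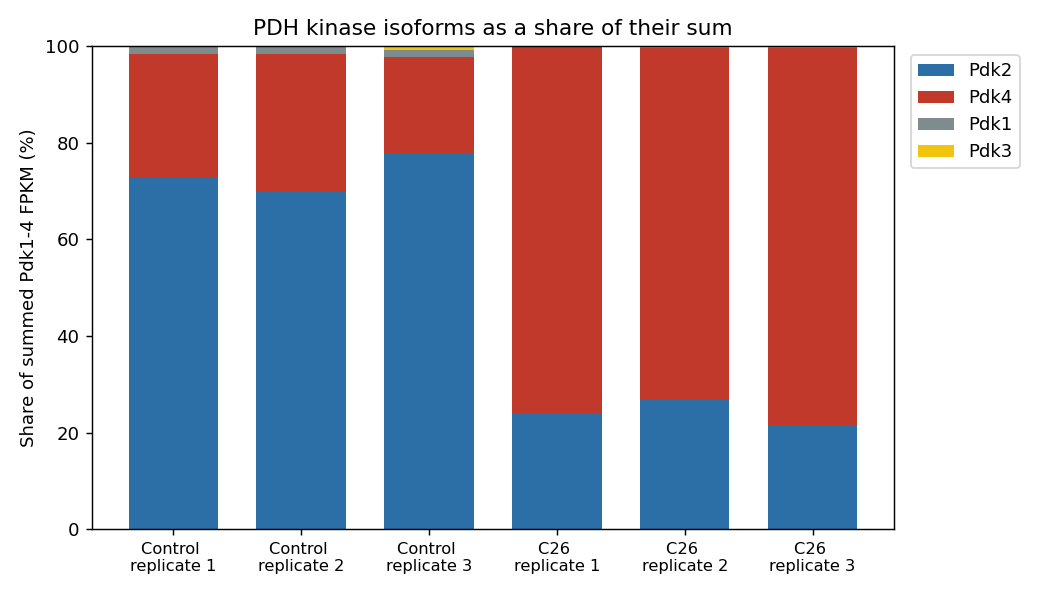
Each bar is 1 muscle and shows the share of Pdk1, Pdk2, Pdk3 and Pdk4 in their summed FPKM, in percent. Pdk4 took 19.9% to 28.3% in Control muscles and 72.8% to 77.9% in C26 muscles.

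The phosphatase genes moved in opposite directions. Pdp1, the catalytic subunit that is activated by calcium and is the main isoform of skeletal muscle, had 2.81, 4.47 and 7.26 FPKM in C26 muscles and 18.5, 18.6 and 13.8 in Control muscles. The groups were well separated, and C26 replicate 3 came nearest to the Control muscles. Pdp1 fell by 1.56 on the log2 scale (SE 0.35, limma adjusted p = 0.0184), and the call was lost without C26 replicate 1 or 2 or Control replicate 1 or 2, at adjusted p values of 0.0562 to 0.0679. Pdp2, the catalytic subunit that does not need calcium, had 4.59, 3.19 and 2.35 FPKM in C26 muscles and 1.27, 1.58 and 1.37 in Control muscles. All C26 values were above all Control values, and the log2 fold change was 1.11 (SE 0.22, limma adjusted p = 0.0136). With Control replicate 1 left out the adjusted p of Pdp2 in limma was 0.0575.

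Pdpr, the regulatory subunit that restrains the phosphatase, had 27.0, 21.0 and 22.2 FPKM in C26 muscles and 12.4, 17.2 and 10.2 in Control muscles. It was about doubled, with a fold of 2.03 and no overlap between the groups (limma adjusted p = 0.0272), and the call was lost without C26 replicate 1 or 2 or Control replicate 1 or 3, at adjusted p values of 0.05003 to 0.0992. With quantile normalization its log2 fold change was 0.75 (limma adjusted p = 0.0819). The ratio of Pdp2 to Pdp1 within a muscle was 1.63, 0.714 and 0.324 in C26 muscles and 0.0686, 0.0848 and 0.0996 in Control muscles. Together Pdp1 and Pdp2 had 7.40, 7.66 and 9.61 FPKM in C26 muscles and 19.8, 20.2 and 15.1 in Control muscles. Both catalytic genes were thus far below Pdk2 and Pdk4 in level in every muscle.

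None of the 4 PDH complex genes analysed was called, and none of the 4 had an unadjusted p under 0.05. Pdha1 encodes the E1α subunit that the kinases phosphorylate. It had 110, 89.8 and 239 FPKM in C26 muscles and 147, 214 and 127 in Control muscles. The log2 fold change was -0.04 with a 95% interval from -1.11 to 1.04. The C26 muscles alone spanned a wider range than the Control muscles. Pdhb, the E1β subunit, differed by 0.40 (95% interval -0.20 to 0.996), and Dlat, the E2 acetyltransferase, by -0.13 (-0.86 to 0.61). Dld, the E3 subunit shared with the other 2-oxoacid dehydrogenases, differed by 0.44 (-0.22 to 1.11). The ratio of Pdk4 to its substrate gene Pdha1 was 12.8, 10.5 and 4.97 in C26 muscles and 0.627, 0.575 and 0.448 in Control muscles. The increase in Pdk4 was therefore also present relative to Pdha1 in each C26 muscle.

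Pyruvate reaches the complex through a carrier made of Mpc1 and Mpc2, and pyruvate carboxylase (Pcx) makes oxaloacetate from it. None of these 3 genes was called. Mpc1 had 350, 394 and 515 FPKM in C26 muscles and 427, 474 and 385 in Control muscles, while Mpc2 had 173, 199 and 304 FPKM against 345, 356 and 335. Mpc2 lay below the Control muscles in the deposited FPKM of every C26 muscle, but the groups overlapped on scaled TPM, and the log2 fold change was -0.44 (SE 0.26, limma adjusted p = 0.222). Mpc2 was called lower by limma with quantile normalization (-0.82, adjusted p = 0.0469) and with C26 replicate 3 left out (-0.63, adjusted p = 0.0209). The ratio of Mpc1 to Mpc2 within a muscle was 2.02, 1.98 and 1.70 in C26 muscles and 1.24, 1.33 and 1.15 in Control muscles; this pair was chosen after its values were seen and was not tested.

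Pcx had 17.0, 19.8 and 17.0 FPKM in C26 muscles and 27.5, 37.4 and 14.0 in Control muscles (log2 fold change -0.23, limma adjusted p = 0.667). Pcx is also abundant in fat cells. The 7 fat cell markers analysed (of 8) summed to 4130, 2055 and 538 FPKM in Control muscles and 386, 280 and 250.9 in C26 muscles, and 6 of them were called lower. Control replicate 3 was lowest among the Control muscles in both measures; the part of fat cells in the Pcx values was not tested.

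**Figure D4:**
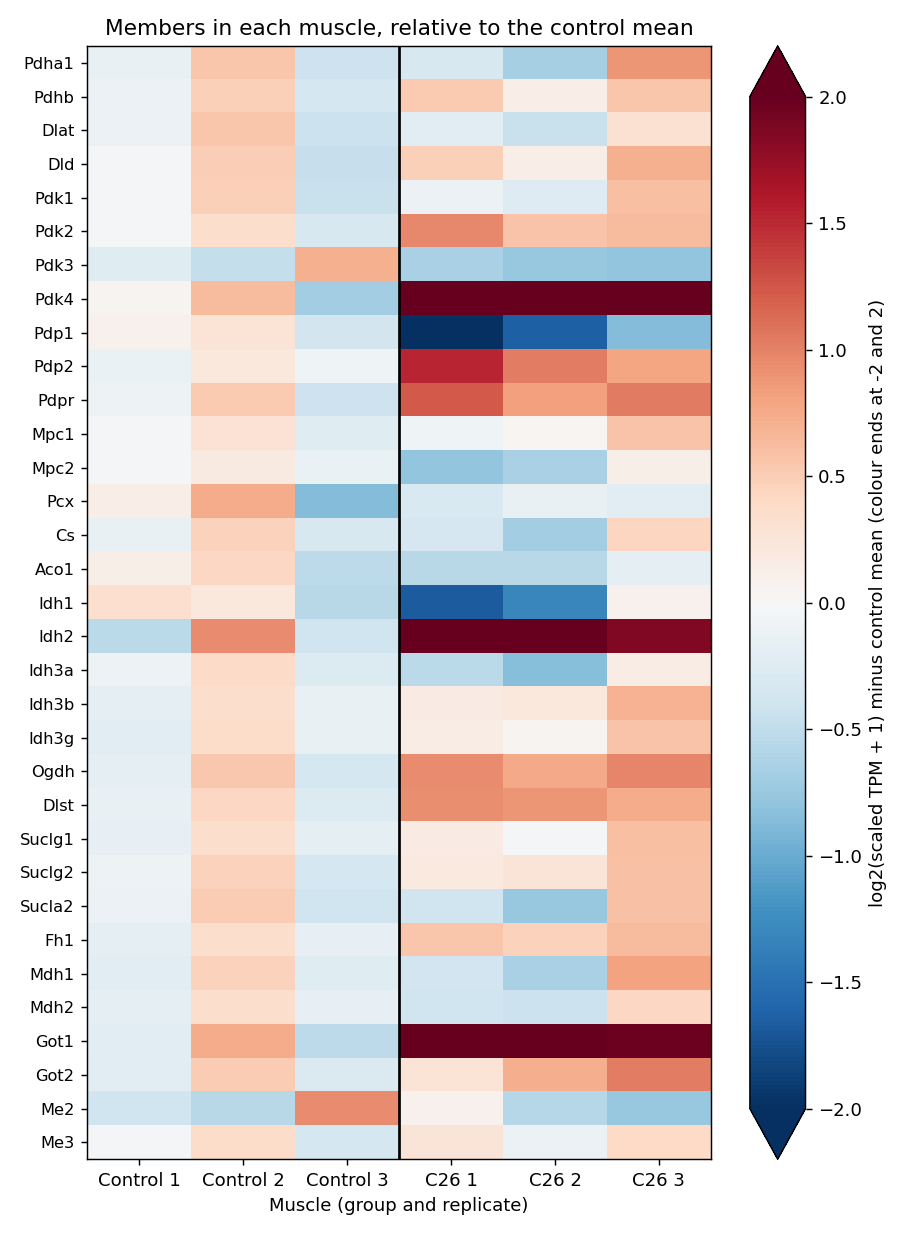
Each column is 1 muscle and each row 1 gene; color gives log2(scaled TPM + 1) minus the mean of the Control muscles. Pdk4, Idh2 and Got1 were high in all 3 C26 muscles, while C26 replicate 3 and Control replicate 2 were above the other muscles of their group for 23 and 30 of the 33 genes.

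At the citrate and isocitrate steps, Idh2 was the 1 of 7 genes called. Idh2 encodes the mitochondrial isocitrate dehydrogenase that makes NADPH. It had 598, 597 and 280 FPKM in C26 muscles and 67.0, 167 and 76.5 in Control muscles. The groups did not overlap, and C26 replicate 3 was the lowest C26 muscle. The fold was 5.64 and the log2 fold change 2.5 (SE 0.46, limma adjusted p = 0.0109). It remained called with each muscle left out, between 2.23 and 2.97, and under 8 of 9 alternatives.

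The other isocitrate dehydrogenases did not share this rise. Idh3a, the catalytic subunit of the enzyme that makes NADH for the respiratory chain, had 144, 121 and 218 FPKM in C26 muscles and 231, 287 and 213 in Control muscles. C26 replicates 1 and 2 lay below all Control muscles and replicate 3 lay among them, and the log2 fold change of -0.42 was not called (SE 0.30, limma adjusted p = 0.312). Its partner subunits Idh3b and Idh3g differed by 0.35 and 0.26 and were not called. The ratio of Idh3a to Idh3b was 0.437, 0.339 and 0.487 in C26 muscles and 0.760, 0.727 and 0.650 in Control muscles, without overlap. The ratio of Idh2 to Idh3a was 4.14, 4.95 and 1.29 against 0.290, 0.580 and 0.360.

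Cytosolic Idh1, which makes NADPH outside mitochondria, had 2.99, 4.16 and 10.7 FPKM in C26 muscles and 16.2, 13.1 and 8.75 in Control muscles. The log2 fold change was -0.96 (SE 0.48, limma adjusted p = 0.165), and -1.41 without C26 replicate 3 (adjusted p = 0.0164). Idh1 and Idh2, which carry out the same reaction in different compartments, thus differed in the sign of their estimates. Aco1, the cytosolic aconitase that also acts as an iron regulatory protein, had 3.88 to 4.83 FPKM across C26 and 4.89 to 8.49 across Control muscles and was not called (-0.44, limma adjusted p = 0.235), but without Control replicate 3 it was lower (-0.70, adjusted p = 0.0413). Citrate synthase (Cs), often used as a marker of mitochondrial content, had 181, 147 and 289 FPKM in C26 muscles and 245, 330 and 226 in Control muscles, with overlap between the groups (-0.20, 95% interval -1.01 to 0.61).

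Both specific subunits of the 2-oxoglutarate dehydrogenase complex were higher. Ogdh, its E1 subunit, had 248, 228 and 238 FPKM in C26 muscles and 135, 196 and 124 in Control muscles. Dlst, its E2 subunit, had 141, 141 and 115 FPKM in C26 muscles and 78.6, 103 and 74.8 in Control muscles. Neither gene overlapped between the groups, and in both the highest Control muscle was replicate 2. The log2 fold changes were 0.89 for Ogdh (SE 0.25, limma adjusted p = 0.0346) and 0.85 for Dlst (SE 0.21, limma adjusted p = 0.0235). Their calls were less firm than that of Pdk4, since both lost them without C26 replicate 1 or 2 or Control replicate 1, and Ogdh also without Control replicate 3 (adjusted p of 0.0695 to 0.114 for Ogdh and 0.0726 to 0.0868 for Dlst). Quantile normalization gave 0.50 and 0.45 with adjusted p of 0.120 and 0.105. The ratio of Ogdh to Cs within a muscle was 1.37, 1.55 and 0.822 in C26 muscles and 0.550, 0.594 and 0.550 in Control muscles.

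Succinyl-CoA ligase, which makes ATP or GTP in the step after, was not called in any subunit. The shared α subunit Suclg1 had 174 to 244 FPKM across C26 and 181 to 230 across Control muscles. The ATP-forming Sucla2 had 105, 84.1 and 196 FPKM in C26 muscles and 151, 207 and 128 in Control muscles, and the GTP-forming Suclg2 had 14.8 to 18.3 against 12.2 to 18.8. Sucla2 was therefore the more abundant β subunit in every muscle, with a ratio to Suclg2 of 5.24 to 10.7 across C26 and 10.6 to 11.0 across Control muscles. Fumarase (Fh1) had 196, 191 and 194 FPKM in C26 muscles, a narrow range, and 139, 179 and 147 in Control muscles. Its groups did not overlap and its unadjusted p was 0.0233, but it missed the call with a log2 fold change of 0.54 (SE 0.18, limma adjusted p = 0.0620), and it passed when TPM was used without TMM (0.58, adjusted p = 0.0430), with sums without the 20 most abundant genes (0.64, adjusted p = 0.0375) and without Control replicate 2 (0.72, adjusted p = 0.0277). With quantile normalization it was 0.13.

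Among the malate-aspartate enzymes, Got1 changed and its partners did not pass the test. Got1, the cytosolic aspartate aminotransferase, had 585, 364 and 271 FPKM in C26 muscles and 75.8, 130 and 62.9 in Control muscles. All C26 values were above all Control values. The fold was 5.23 and the log2 fold change 2.39 (SE 0.40, limma adjusted p = 0.00825), called under all 9 alternatives and with each muscle left out, between 2.10 and 2.76 in the latter. Got2, the mitochondrial form, had 182, 259 and 287 FPKM in C26 muscles and 153, 224 and 151 in Control muscles, and the groups overlapped (0.67, SE 0.29, limma adjusted p = 0.113). The ratio of Got1 to Got2 was 3.22, 1.41 and 0.941 in C26 muscles and 0.495, 0.578 and 0.416 in Control muscles.

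The malate dehydrogenases did not part the groups. Mdh2, the mitochondrial form and the second most abundant of the genes examined over all 6 muscles, had 412, 414 and 677 FPKM in C26 muscles and 560, 723 and 595 in Control muscles (-0.14, 95% interval -0.82 to 0.54). Cytosolic Mdh1 had 121, 105 and 259 FPKM in C26 muscles and 162, 229 and 164 in Control muscles (-0.08, 95% interval -1.06 to 0.91). For both genes C26 replicate 3 was above and the other C26 muscles were below every Control muscle, except that Mdh2 in C26 replicate 3 was below Control replicate 2. The malic enzymes, which make pyruvate from malate in mitochondria, were not called, and Me2 was the lower of them in level. Me2 had 0.87 to 2.13 FPKM across C26 and 1.22 to 5.30 across Control muscles, and Me3 had 22.0 to 28.9 against 22.1 to 31.5.

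**Figure D5:**
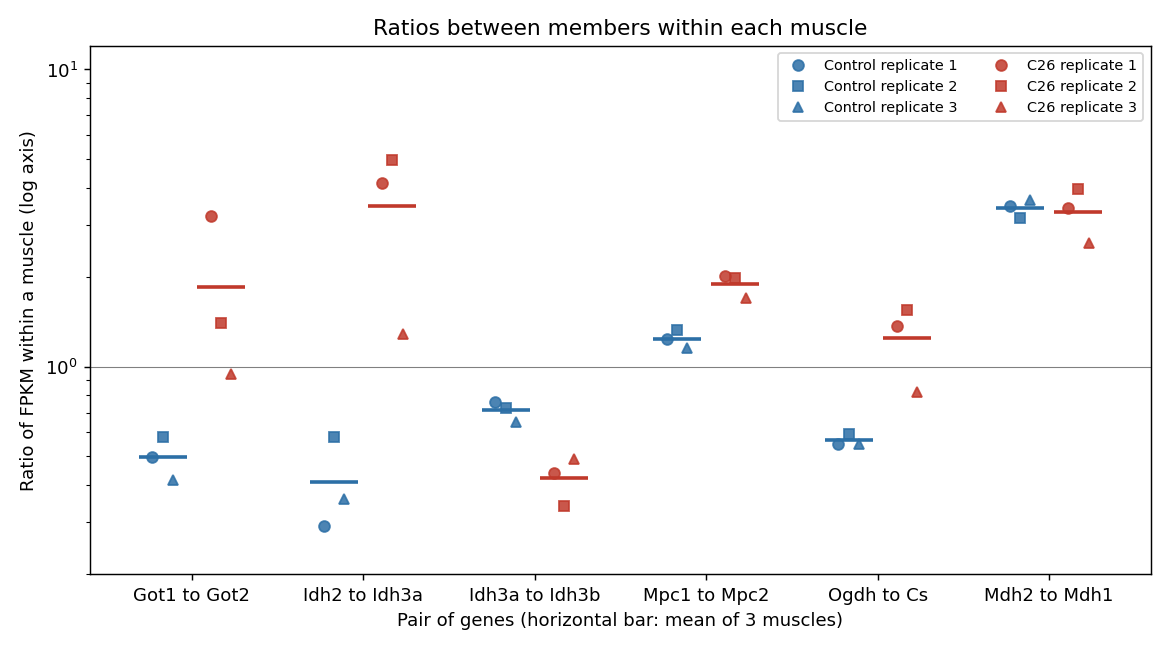
Ratio of the FPKM of paired genes within each muscle, on a log axis; such ratios do not depend on the scaling between muscles. The groups were apart for Got1 to Got2, Idh2 to Idh3a, Idh3a to Idh3b, Mpc1 to Mpc2 and Ogdh to Cs, and overlapped for Mdh2 to Mdh1; the pairs were chosen after the values had been seen, and no test was made.

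A pattern across muscles ran through many of these genes. Within the C26 group, replicate 3 was the highest muscle for 23 of the 33 genes (69.7%), beside 39.8% of all genes on scaled TPM. Within the Control group, replicate 2 was the highest for 30 of the 33 (90.9%), beside 38.7% of all genes. C26 replicate 3 exceeded the mean of the other C26 muscles by 1.38 for Pdha1, 1.32 for Mdh1, 1.17 for Sucla2 and 0.94 for Cs on the log2 scale. It was lower than them for Idh2, by -0.97, and Got1, by -0.65. In 13 nuclear genes of mitochondria fixed for reference (subunits of respiratory complexes, porins and others), Control replicate 2 was the highest Control muscle for all 13 and C26 replicate 3 the highest C26 muscle for 11.

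These muscles also differed in fiber type genes. Myh2, the myosin of fast oxidative IIa fibers, had 84.5, 75.1 and 379 FPKM in C26 muscles and 113, 214 and 77.3 in Control muscles. Myh1, the myosin of IIx fibers, had 299, 254 and 2555 FPKM in C26 muscles and 92.8, 331 and 118 in Control muscles. C26 replicate 3 and Control replicate 2 were thus the highest of their groups for both myosins. The 4 slow and oxidative fiber markers summed to 130, 85.4 and 482 FPKM in C26 muscles and 282, 239 and 148 in Control muscles, with none called and Control replicate 1 highest among the Controls; the part of fiber type in the levels above was not tested. The fast fiber myosin Myh4 had 8751 to 10905 FPKM across C26 and 8672 to 10809 across Control muscles, and the calcium buffer Pvalb of fast fibers fell by 2.59 on the log2 scale (limma adjusted p = 0.0232).

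Other genes around the pathway were taken by list. Of 8 succinate dehydrogenase subunit and assembly genes, 1 was higher and 1 lower. The assembly factors Sdhaf2 (0.54, limma adjusted p = 0.0355) and Sdhaf4 (-1.40, limma adjusted p = 0.0425) were those, while the 4 subunit genes were not called. Sdha, the flavoprotein subunit, had 215, 198 and 232 FPKM in C26 muscles and 144, 217 and 111 in Control muscles. Of the shuttle carriers and glutamate dehydrogenase, 4 of 5 genes were analysed and 0 were called, nor did any have an unadjusted p under 0.05. Slc25a12, the muscle aspartate-glutamate carrier, differed by 0.51 (limma adjusted p = 0.141) and Slc25a11, the malate-oxoglutarate carrier, by 0.07 (limma adjusted p = 0.832). The rise of Got1 was therefore not accompanied by a called change of the other shuttle genes analysed.

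Among the lipoate cofactor genes, Lipt1, which transfers lipoate onto the E2 subunits, was higher (0.75, limma adjusted p = 0.0163). Of 5 genes of the related branched-chain ketoacid dehydrogenase, 3 were higher and 0 lower. They were the complex subunits Dbt (1.73, limma adjusted p = 0.0125), Bckdha (1.02, limma adjusted p = 0.0139) and Bckdhb (0.91, limma adjusted p = 0.0382). Its kinase Bckdk (-0.14) and phosphatase Ppm1k (-0.23) were not called.

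On the cytosolic side of pyruvate, 2 of 5 genes were lower and 1 was higher. Ldha, the lactate dehydrogenase subunit of fast muscle, had 508, 291 and 797 FPKM in C26 muscles and 1816, 1790 and 1478 in Control muscles (-1.57, limma adjusted p = 0.0266). Pkm, the muscle pyruvate kinase, was lower by a similar amount (-1.41, limma adjusted p = 0.0242), and Slc16a1, the lactate and pyruvate transporter MCT1, was higher (1.83, limma adjusted p = 0.00645). Of 5 genes of the glycerol phosphate shuttle and citrate export, 3 were lower and 0 higher. Gpd1, the cytosolic enzyme of the alternative NADH shuttle, had 28.5, 18.0 and 67.8 FPKM in C26 muscles and 280, 305 and 179 in Control muscles. The citrate carrier Slc25a1 (-3.25, limma adjusted p = 0.00833) and Acly (-1.92, limma adjusted p = 0.0406), which cleaves exported citrate, were the others. These genes are also active in fat cells, whose markers were lower in C26 muscles as given above. The part of fat cells in the values of Gpd1, Slc25a1 and Acly was not tested. Of 4 genes that feed propionyl-CoA into the cycle, 1 was higher, the mutase Mmut (0.88, limma adjusted p = 0.0454).

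Genes known to act on Pdk4 or to be regulated with it were taken as a list of 10, of which 9 were analysed; 6 were higher and 0 lower. Foxo3, a transcription factor known to activate Pdk4, had 14.9, 11.2 and 15.8 FPKM in C26 muscles and 3.24, 3.63 and 3.60 in Control muscles (2.01, limma adjusted p = 0.00235). Foxo1 was higher as well (2.09, limma adjusted p = 0.00794). Ppargc1a, a coactivator of mitochondrial genes, had 10.5, 10.7 and 9.29 FPKM in C26 muscles and 3.02, 3.55 and 2.47 in Control muscles, without overlap (1.77, limma adjusted p = 0.00283). The uncoupling protein gene Ucp3 rose by 1.99, and Ppard and Cpt1b were also among the 6. The nuclear receptors Esrra (-0.27, limma adjusted p = 0.466) and Ppara (0.58, limma adjusted p = 0.310) were not called. Of the 13 mitochondrial reference genes, Tomm20 (0.86, limma adjusted p = 0.0259) and Vdac2 (0.56, limma adjusted p = 0.0235) were higher and 0 were lower, with a median log2 fold change of 0.08.

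The 5 skeletal muscle fiber markers summed to 59145, 50661 and 65923 FPKM in C26 muscles and 86908, 87583 and 86364 FPKM in Control muscles, lower in every C26 muscle, with 0 of the 5 called. Markers of other cells in the tissue also differed between samples. The 3 red blood cell markers were all called higher, summing to 410, 367 and 685 FPKM in C26 muscles against 290, 230 and 193. Hba-a1 alone made up 404, 362 and 675 FPKM of these sums in C26 muscles and 288, 228 and 191 in Control muscles. Hbb-bs had at most 1.14 FPKM in any muscle. Of 5 fibroblast markers 3 were lower, and of 4 endothelial markers 1 was lower. The 4 macrophage markers were not called. Their summed level was highest in C26 replicate 2, at 250.9 FPKM, of which Cd68 alone made up 247 FPKM. In that muscle Adgre1 had 0.46, Csf1r 2.52 and Mrc1 1.25 FPKM, none of them above the highest Control muscle. The 3 Schwann cell markers were not called. The part of these cells in the results above was not tested.

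The promoters of the 3 genes with the largest rises are shown. Each of these genes was above every Control muscle in all 3 C26 muscles, which on scaled TPM held for 9 of the 33 genes. They come from RefSeq on build GRCm38.p6, hold 250 bases before and 50 after the annotated start, and lie on the minus strand. Capitals mark CCAAT (or ATTGG on the other strand) and the GC box GGGCGG (or CCGCCC). The regions are chr6:5496229-5496528 for Pdk4, chr7:80115301-80115600 for Idh2 and chr19:43524556-43524855 for Got1.
Pdk4: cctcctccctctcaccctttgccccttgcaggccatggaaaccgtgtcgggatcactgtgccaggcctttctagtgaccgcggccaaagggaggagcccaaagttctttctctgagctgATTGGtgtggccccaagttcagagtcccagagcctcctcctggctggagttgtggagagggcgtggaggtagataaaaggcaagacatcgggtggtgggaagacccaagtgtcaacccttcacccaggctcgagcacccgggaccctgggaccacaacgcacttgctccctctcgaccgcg
Idh2: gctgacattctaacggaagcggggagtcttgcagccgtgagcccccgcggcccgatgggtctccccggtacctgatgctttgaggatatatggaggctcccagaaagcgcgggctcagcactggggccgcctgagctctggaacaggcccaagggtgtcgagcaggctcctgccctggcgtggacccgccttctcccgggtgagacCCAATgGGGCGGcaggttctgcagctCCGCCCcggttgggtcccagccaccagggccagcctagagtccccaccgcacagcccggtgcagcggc
Got1: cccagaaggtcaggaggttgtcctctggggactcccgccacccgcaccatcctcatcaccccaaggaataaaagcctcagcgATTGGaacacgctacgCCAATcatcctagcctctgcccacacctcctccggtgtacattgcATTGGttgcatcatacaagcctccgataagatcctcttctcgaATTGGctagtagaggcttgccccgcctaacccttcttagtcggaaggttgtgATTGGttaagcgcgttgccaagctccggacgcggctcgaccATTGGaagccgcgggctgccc

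Promoter sequences were found for 31 of the 34 genes, as 41 promoters, and not for Pdp1, Idh3a and Me2. The Pdk4 window held 1 CCAAT match, on the opposite strand with its first base 131 bases before the start, and no GC box. Idh2 held a CCAAT match next to a GC box, and another GC box on the opposite strand. Got1 held 6 CCAAT matches and no GC box. At least as many were held by 26 of all 32851 promoters (0.0791%). Among the promoters of the genes in the deposited table they were held by 17 of 13593 (0.125%). The number 6 was taken from the Got1 promoter itself, so these shares are not a test. CCAAT on either strand was present in 61% of the promoters of the genes examined, beside 37.4% of all promoters and 37.4% of those of the genes in the deposited table. The GC box was present in 63.4%, beside 35.7% and 60.5%.

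The letters TGTTTAC of a FoxO site were in 0 of the 41 promoters (3.65% of all promoters and 2.57% of those of the genes in the deposited table), and TCAAGGTCA of an ERR site in 0 (0.423% and 0.287%). GCATGCGC, the core of an NRF1 site, was in 2 (4.88%), both of Ogdh, beside 2.71% of all promoters and 4.76% of those of the genes in the table. Each motif was searched on both strands, and an absent match says only that these letters were not in these windows.

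The reads had 50 bases, so runs of 50 bases shared with other genes mark where reads could have been assigned to more than 1 gene. Among the transcripts of Idh2, Got1, Ogdh, Pdp1 and Pdk2, 0% of such runs occurred in another gene of GENCODE M21, and the share was 1.4% for Pdk4. It was largest for Mpc1 (26.3%), Got2 (25.6%) and Suclg2 (16%), followed by Pdha1 (12.9%, mostly shared with Map3k15) and Pdhb (11.4%). Mpc1 shared runs with Mpc1-ps and Got2 with Got2-ps1, among others. These shares count distinct runs over annotated transcripts and not reads, so how far the levels of these 5 genes are affected is unknown. Depth per muscle is unknown, since counts were not used here.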

How the data were processed

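Expression was measured by RNA sequencing in 6 gastrocnemius muscles. Per the paper's methods, the authors depleted rRNA, sequenced 50-base single ends, discarded adaptor, rRNA and low-quality reads, and used bowtie2 with GRCm38.p5 before computing FPKM with RSEM. The submitters' processing notes list HISAT2 2.0.4, Bowtie2 2.2.5, RSEM 1.2.12 and mm9, so the build is given differently in the sources. The deposited values are FPKM per Entrez gene ID, to 2 decimals, and every listed gene is above 0 in all samples. Counts were not used here, so depth is unknown. An RNA extraction label also names a human cell line; the 5 skeletal muscle markers summed to 50661 to 65923 FPKM in C26 samples and 86364 to 87583 FPKM in Control samples.

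Groups and replicates came from the sample titles. Gene IDs were matched to symbols for 13327 genes and not for 36. FPKM were rescaled to TPM and divided by unweighted TMM factors (0.903 to 1.08; trimming 30% of the log ratios and 5% of the levels on each side), with a pseudocount of 1 before log2. C26 and Control were compared with limma 3.58.1 in R 4.3.3 over all 13363 genes, two-sided, with Benjamini-Hochberg adjustment, and no filter. The fit was also run on simulated data with independent noise for each gene. That run lacked deviations shared across genes within single muscles, and its result is not reported here. Shares were compared by exact permutation in scipy 1.17.1, and figures were drawn with matplotlib 3.10.9.

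The members and lists were chosen with earlier results of these data known. All members are named; of each pathway list outside them, up to 4 called genes with the largest changes, with Foxo1 and Ppargc1a. Sdha, the shuttle carriers, Bckdk, Ppm1k, Esrra, Ppara, Ppard, Cpt1b, Ptprc, the macrophage markers and the fiber genes were named outside this rule, after their values were seen. Protein comparisons of the Pdk isoforms were not made, and 1 cofactor gene is not reported here. Alternatives were quantile normalization, FPKM as deposited, unscaled TPM, a minimum mean TPM of 1, a pseudocount of 0.1, sums without the 20 most abundant genes, the replicate number as a block, limma with an intensity trend, an ordinary linear model, and each muscle left out.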

Additional observations from a re-analysis of the deposited data

How the results depend on the processing

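Pdk4 and Got1 remained called in all alternatives, Idh2 in all but the ordinary linear model (adjusted p = 0.0561), and no called member changed sign. The number of members higher, 8, became 4 with quantile normalization, 2 with the ordinary linear model and 5 with the replicate block. Leaving out single muscles gave 3 (without Control replicate 1) to 9. The number lower, 1, became 2, 0 and 0 under those alternatives and ranged from 0 to 3 when single muscles were left out; without C26 replicate 3 the 3 were Pdp1, Mpc2 and Idh1. Over all genes, 2589 higher became 2242 with quantile normalization, 1839 with the block, 1678 with FPKM as deposited and 1525 with the ordinary linear model. Likewise 1932 lower became 1574 with quantile normalization, 1235 with the block, 2504 with FPKM as deposited and 959 with the ordinary linear model. With each muscle left out these were 1127 to 3311 and 669 to 2160. The smaller counts with muscles left out come with fewer samples; the cause of the other shifts was not tested.

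The replicate number was not shown to pair the mice, since the deviations of same-numbered muscles correlated at -0.039, -0.084 and -0.112. Under the replicate block Pdk2, Pdp1, Pdpr and Ogdh lost their calls (adjusted p = 0.0838, 0.0532, 0.0668 and 0.0772). The share of Pdk4 differed by 48.6 to 52.8 percentage points and that of Pdk2 by -51.2 to -47.2 with each muscle left out.

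Sign changes occurred in members that were not called. With sums without the 20 most abundant genes, Pdha1 had 0.0572 and Mdh1 0.0167. With quantile normalization, Pdhb had -0.0064, Mpc1 -0.16, Idh3g -0.11, Suclg1 -0.17 and Me3 -0.19. With FPKM as deposited, Pdk1 had -0.11, Mpc1 -0.045 and Me3 -0.0303. With each muscle left out, the log2 fold change ran from -0.41 to 0.28 for Pdha1, -0.34 to 0.15 for Dlat, -0.15 to 0.32 for Pdk1, -0.66 to 0.14 for Pcx, -0.43 to 0.0456 for Cs, -0.50 to 0.0992 for Sucla2, -0.43 to 0.21 for Mdh1, -0.33 to 0.0387 for Mdh2 and -0.70 to 0.0551 for Me2.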
